A study of Homo sapiens with 6 samples.

Results

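The TRAF adaptor family, TRAF1 to TRAF7, was examined in MDA-MB-231 breast cancer cells after adenoviral delivery of ADAR1 p110, the constitutive isoform of an enzyme that edits double-stranded RNA (3 libraries), or of eGFP (3 libraries, called GFP). The 7 members were matched by gene symbol. All 7 were found among the 60461 genes of the count table, and all 7 were among the 18899 genes that passed a filter on low counts and were tested. Both groups were transduced at a multiplicity of infection of 200, received fresh medium at 16 h and were extracted at 48 h for stranded total RNA sequencing. MDA-MB-231 is an established line that lacks oestrogen and progesterone receptors. The replicates are called biological, but whether each was a culture of its own is not said, and p-values therefore rest on the variation among these 6 libraries, which may be technical. The promoter that drives the transgenes is not given in the sources used here.

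TRAF proteins carry signals from receptors of the tumour necrosis factor (TNF), Toll and interleukin-1 families to the NF-kappaB and MAP kinase pathways. Most have an N-terminal RING domain with ubiquitin ligase activity and a C-terminal TRAF domain that forms trimers and binds receptor tails. TRAF1 lacks the RING domain and is itself a transcriptional target of NF-kappaB, while TRAF7 carries WD40 repeats in place of the receptor-binding part. TRAF4 was first isolated from metastatic breast carcinoma.

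Library totals ran from 72741235 to 99589278 counts, and a count of 0 allowed at most 0.0304 to 0.0414 CPM (read counts relative to the library total, scaled by the TMM method), which covers counting error only. ADAR itself was at 1006 ± 13.2 CPM in ADAR1 p110 libraries and 267 ± 8.67 CPM in GFP libraries (SD, n = 3 each), as the labels have it, and its counts do not part viral from endogenous transcripts. NDRG2 differed most of all genes by p-value, with 16 to 38 counts in ADAR1 p110 libraries against 35496 to 50665 counts in GFP libraries (0.346 ± 0.141 CPM and 517 ± 28.6 CPM; SD, n = 3 each). Its part in other differences was not tested and cannot be told apart from that of ADAR1 p110, since both differ between the same groups. Removing the counts of NDRG2 and ADAR, which alters little but the scaling, left the same 3 TRAF members called. On the second principal component (21.8% of the variance) ADAR1 p110 replicate 1 (26.2) and GFP replicate 2 (24.1) stood apart from the other 4 libraries. Each member is therefore given below also without them. The other 4 also lay near each other across groups. ADAR1 p110 replicate 2 was at -7.49 and GFP replicate 3 at -7.98, while ADAR1 p110 replicate 3 was at -16.6 and GFP replicate 1 at -18.2. ESR1 and PGR, the receptor genes, had at most 6 counts in any library, whereas VIM averaged 2179 ± 181 and 1952 ± 57.9 CPM and ERBB2 90.1 ± 2.04 and 85.8 ± 3.16 CPM in ADAR1 p110 and GFP libraries (SD, n = 3 each). Of 7 leukocyte markers, CD3E, MS4A1 and FCGR3A had no count in any library, and the 7 together summed to 3.09 to 3.63 CPM in ADAR1 p110 libraries and 3.56 to 4.64 CPM in GFP libraries, most of it CD14.

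Promoter windows are shown for TRAF1 and TRAF3, the members with the largest changes, because NF-kappaB binds a known short motif, the kappaB consensus, that can be looked for in them. The windows were taken from RefSeq (build GRCh38.p14), span 250 bases before to 50 after an annotated start, and matched hg19 exactly and once at the positions given. Capitals mark matches to the consensus, which was searched on both strands, overlaps included, after the windows had been seen.
TRAF1, start at hg19 chr9:123689074, window chr9:123689025-123689324, minus strand: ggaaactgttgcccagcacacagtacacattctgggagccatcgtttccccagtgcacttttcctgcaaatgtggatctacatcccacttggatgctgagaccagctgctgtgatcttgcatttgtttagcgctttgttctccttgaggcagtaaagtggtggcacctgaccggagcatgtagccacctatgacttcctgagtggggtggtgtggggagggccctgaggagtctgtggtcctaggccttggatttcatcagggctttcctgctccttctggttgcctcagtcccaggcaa
TRAF3, start at hg19 chr14:103243786, window chr14:103243536-103243835, plus strand: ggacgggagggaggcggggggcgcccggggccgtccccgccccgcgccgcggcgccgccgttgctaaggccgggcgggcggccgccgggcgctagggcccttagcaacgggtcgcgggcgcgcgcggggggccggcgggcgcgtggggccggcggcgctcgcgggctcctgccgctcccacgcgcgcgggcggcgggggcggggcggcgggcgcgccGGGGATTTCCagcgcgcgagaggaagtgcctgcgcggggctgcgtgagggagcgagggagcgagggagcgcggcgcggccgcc
The TRAF3 window held GGGGATTTCC, on the strand of the gene, with its first base 33 bases before the start. None of the 3 RefSeq windows of TRAF1 held a match, nor did those of TRAF2, TRAF4, TRAF5, TRAF6 and TRAF7, so 1 of the 7 members, with 11 windows in all, had one. The TRAF1 window shown belongs to a start inside the gene. Another of its starts, chr9:123691449, lies at the outer edge of the gene in the count table. Of 27305 genes with a RefSeq window 3619 had a match (13.3%), and of the 35116 windows 11.3% did. A match is a string of letters, and binding was not measured. The search covered this consensus within these windows alone, so the absence of a match does not show that a gene lacks kappaB sites.

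TRAF1, TRAF2 and TRAF3 were lower in ADAR1 p110 cells, and the other 4 members did not pass the test. By far the largest change was in TRAF1, whose level was 2.78-fold lower, while TRAF3 was 1.25-fold and TRAF2 1.19-fold lower. Thus 3 of 7 members fell and 0 rose by the edgeR quasi-likelihood test at a Benjamini-Hochberg adjusted p under 0.05, where 2.96% of all tested genes fell and 1.95% rose, or 4.91% in either direction. With library size alone as the scaling the same 3 members fell, and 510 genes rose and 479 fell over the whole table, against 368 and 559 with TMM. The median log2 fold change was -0.03 over the 7 members and 0.005 over all tested genes. Counts come from whole cultures, so fewer cells with a transcript and less of it per cell cannot be told apart.

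TRAF1 (ENSG00000056558.10_2, hg19 chromosome 9, 123664671 to 123691451, minus strand) joins TRAF2 in mixed complexes at TNF receptors and holds BIRC2 and BIRC3 there. It had 1623, 1988 and 1705 counts in ADAR1 p110 replicates 1, 2 and 3, against 5247, 4051 and 5935 counts in the GFP replicates. These amounted to 21.4, 20.2 and 22.1 CPM in ADAR1 p110 libraries and 60.5, 55.8 and 60.3 CPM in GFP libraries. The highest ADAR1 p110 library thus lay far below the lowest GFP library. Means were 21.2 ± 0.949 CPM and 58.9 ± 2.63 CPM (SD, n = 3 each), a log2 fold change of -1.47 (SE 0.061, 95% interval -1.61 to -1.34, edgeR adjusted p = 1.43e-07). By p-value TRAF1 ranked 14 among the 18899 genes, and by size it ranked 54 among the called falls. It was the only member to pass a test against a 1.5-fold change (edgeR glmTreat, adjusted p = 2.45e-06), which 0.381% of all tested genes passed in the lower direction and 0.0159% in the higher. Without ADAR1 p110 replicate 1 and GFP replicate 2 the log2 fold change was -1.52.

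TRAF3 (ENSG00000131323.14_3, hg19 chromosome 14, 103243813 to 103377837, plus strand) brings the kinase NIK to its degradation in resting cells and links antiviral sensors to the kinases TBK1 and IKBKE. Its level was 32.1, 34.0 and 32.3 CPM in ADAR1 p110 replicates 1, 2 and 3 and 40.7, 41.5 and 41.3 CPM in the GFP replicates. The groups did not overlap. The means of 32.8 ± 1.04 CPM and 41.2 ± 0.422 CPM (SD, n = 3 each) differed by a log2 fold change of -0.33 (SE 0.053, 95% interval -0.44 to -0.21, edgeR adjusted p = 0.00534), and by -0.30 without ADAR1 p110 replicate 1 and GFP replicate 2.

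TRAF2 (ENSG00000127191.17_2, hg19 chromosome 9, 139776364 to 139821059, plus strand), the main TRAF of TNF receptor 1 and the bridge between TRAF3 and the ligases BIRC2 and BIRC3, changed least of the called members. It had 46.0, 45.8 and 44.6 CPM in ADAR1 p110 replicates 1, 2 and 3 and 55.2, 53.1 and 53.8 CPM in the GFP replicates. Here too every ADAR1 p110 library lay below every GFP library. The log2 fold change was -0.25 (SE 0.051, 95% interval -0.36 to -0.14, edgeR adjusted p = 0.0176), with means of 45.5 ± 0.740 CPM and 54.1 ± 1.04 CPM (SD, n = 3 each). Its call was lost without ADAR1 p110 replicate 2 (edgeR adjusted p = 0.0736), ADAR1 p110 replicate 3 (0.103), GFP replicate 1 (0.110) or GFP replicate 3 (0.0810), while its log2 fold change stayed between -0.26 and -0.23. With both ADAR1 p110 replicate 1 and GFP replicate 2 left out it was -0.27 (adjusted p = 0.00131).

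TRAF7 (ENSG00000131653.12_3, hg19 chromosome 16, 2205699 to 2228130, plus strand), which binds the kinase MEKK3, was the only member with a positive estimate. Its level was 64.9, 66.7 and 69.1 CPM in ADAR1 p110 replicates 1, 2 and 3 and 62.2, 58.6 and 63.5 CPM in the GFP replicates. The lowest ADAR1 p110 library lay just above the highest GFP library, but the log2 fold change of 0.12 (95% interval 0.003 to 0.24) did not pass after adjustment (unadjusted p = 0.0455, edgeR adjusted p = 0.258), and 18.6% of all tested genes had an unadjusted p under 0.05. With TRAF1, TRAF2 and TRAF3 this made 4 of 7 members whose groups did not overlap, where 24.0% of all tested genes had no overlap.

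TRAF4 (hg19 chromosome 17, 27071002 to 27077976, plus strand), which acts at the TGF-beta receptor, had 60.7, 72.9 and 68.0 CPM in ADAR1 p110 replicates 1, 2 and 3 and 72.9, 65.1 and 68.5 CPM in the GFP replicates. Its spread was the widest of the family, and the groups overlapped throughout (log2 fold change -0.03, 95% interval -0.19 to 0.13, edgeR adjusted p = 0.865). TRAF5 (hg19 chromosome 1, 211499957 to 211548288, plus strand), a relative of TRAF2 and TRAF3 at CD40 and the lymphotoxin receptor, lay between 32.8 and 35.1 CPM in ADAR1 p110 libraries and between 32.6 and 35.2 CPM in GFP libraries. Its log2 fold change was -0.02 (95% interval -0.15 to 0.11, edgeR adjusted p = 0.897). TRAF6 (hg19 chromosome 11, 36508577 to 36531822, minus strand), the ligase of Toll and interleukin-1 receptor signalling, had 15.5, 14.8 and 17.3 CPM in ADAR1 p110 replicates 1, 2 and 3 and 16.3, 16.1 and 16.4 CPM in the GFP replicates (log2 fold change -0.03, 95% interval -0.19 to 0.13, edgeR adjusted p = 0.862). Without ADAR1 p110 replicate 1 and GFP replicate 2 the log2 fold changes were -0.00076 for TRAF4, -0.03 for TRAF5, -0.03 for TRAF6 and 0.11 for TRAF7, none of them called. With all 6 libraries the intervals of TRAF4, TRAF5 and TRAF6 leave room for falls of up to 12.5% in TRAF4, 9.93% in TRAF5 and 12.6% in TRAF6. The sign of each estimate turned in some fits, for TRAF4 without ADAR1 p110 replicate 1 (0.034) or GFP replicate 1 (0.012), for TRAF5 without GFP replicate 2 (0.0042) or when scaled by library size alone (0.0020), and for TRAF6 without ADAR1 p110 replicate 2 (0.018). Genes that overlap a member in the annotation could take little of its reads, since the 7 of them, at 4 members, held at most 30 counts in a library and at most 0.327% as many counts as the member.

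**Figure D1:**
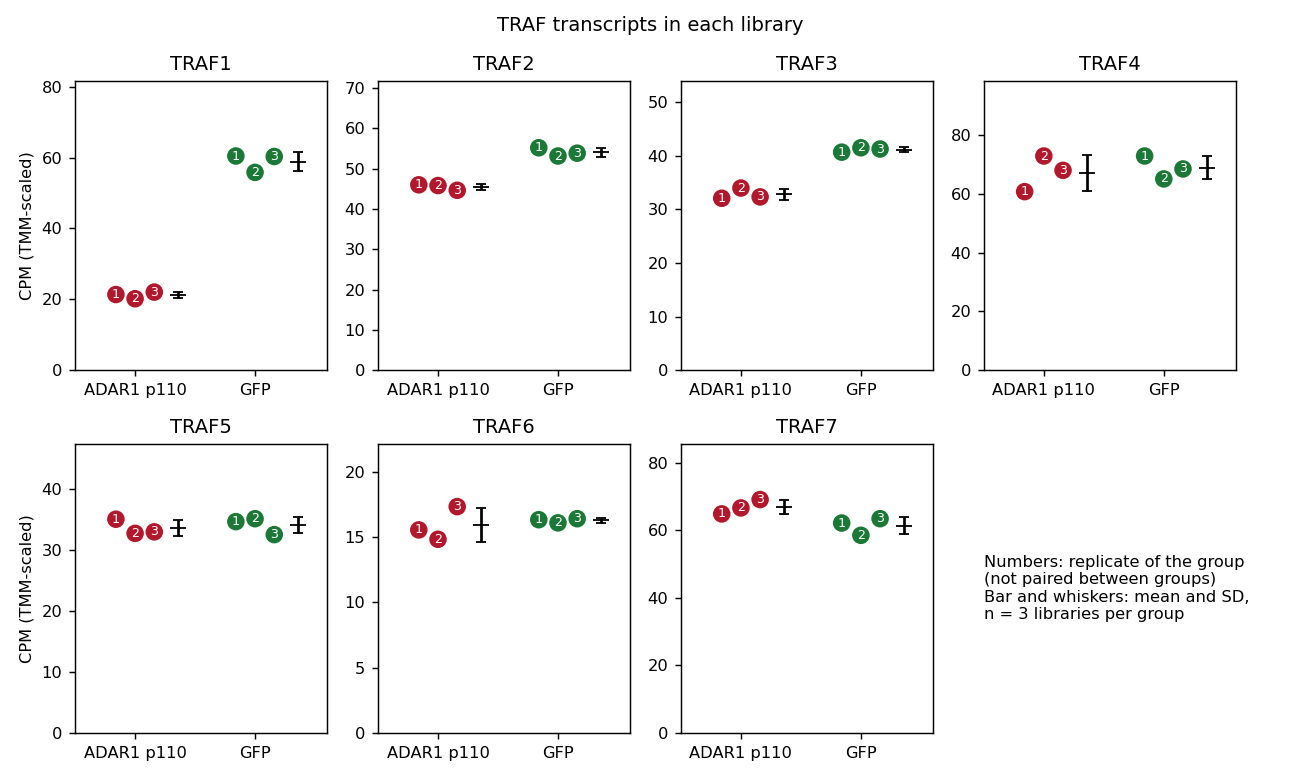
CPM of the 7 TRAF members (vertical axes from 0) in each ADAR1 p110 library (red) and GFP library (green), with replicate numbers in the points and the mean and SD beside them (n = 3 per group). TRAF1 shows the widest gap, 21.2 against 58.9 CPM, TRAF2 and TRAF3 show narrow gaps without overlap, and the groups of TRAF4, TRAF5 and TRAF6 overlap.

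Levels were compared between members only per kilobase of annotated gene length, as RPKM. That length is fixed for each gene and does not follow which of its transcripts are present, which was not examined. The order, shares and sum below are therefore approximate. In ADAR1 p110 cells the order was TRAF7 (14.9 ± 0.475 RPKM), TRAF4 (14.6 ± 1.33), TRAF2 (12.4 ± 0.202), TRAF3 (3.97 ± 0.125), TRAF5 (3.73 ± 0.141), TRAF1 (3.29 ± 0.147) and TRAF6 (3.26 ± 0.265 RPKM; SD, n = 3 each). In GFP cells it was TRAF4 (15.0 ± 0.849 RPKM), TRAF2 (14.8 ± 0.284), TRAF7 (13.7 ± 0.568), TRAF1 (9.13 ± 0.408), TRAF3 (4.98 ± 0.0510), TRAF5 (3.78 ± 0.154) and TRAF6 (3.34 ± 0.0341 RPKM; SD, n = 3 each). Neighbours whose libraries overlapped were TRAF7 and TRAF4, TRAF3 and TRAF5, and TRAF1 and TRAF6 in ADAR1 p110 cells, and TRAF4 and TRAF2 in GFP cells. TRAF1 thus stood clear of TRAF3 in GFP cells and within the spread of TRAF6, the lowest member, in ADAR1 p110 cells. TRAF1 made up 5.85% ± 0.329 of the summed RPKM of the family in ADAR1 p110 cells and 14.1% ± 0.273 in GFP cells (SD, n = 3 each), and the sum was 56.2 ± 1.46 RPKM in ADAR1 p110 cells and 64.6 ± 1.87 RPKM in GFP cells.

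**Figure D2:**
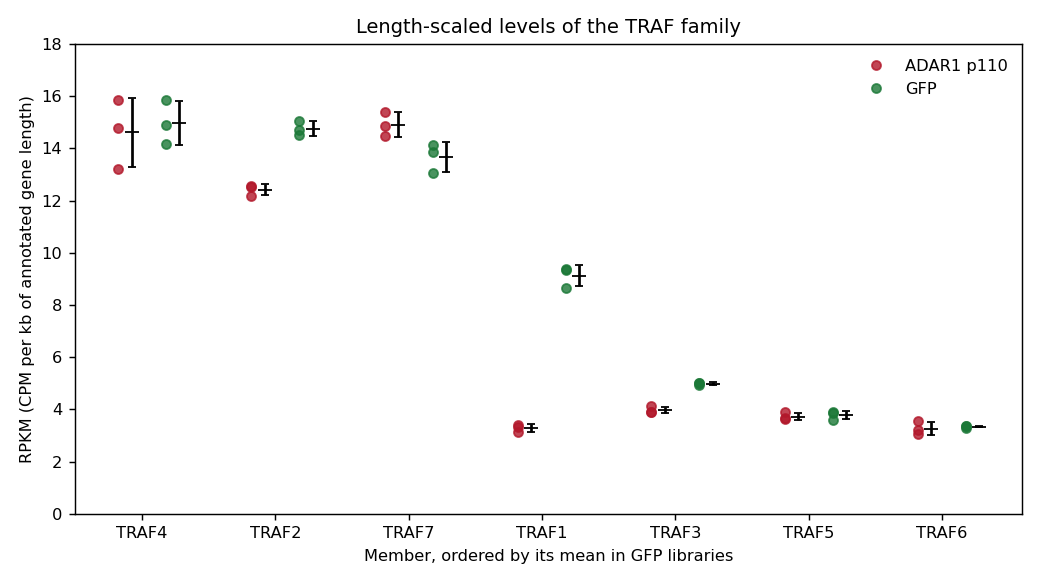
RPKM of each member (vertical axis, linear from 0), ordered by its mean in GFP libraries, with 1 point per library, ADAR1 p110 in red left of GFP in green, and the mean and SD in black (n = 3 per group). TRAF1 lies at 3.29 RPKM in ADAR1 p110 libraries, close to TRAF6, and at 9.13 RPKM in GFP libraries, between TRAF7 and TRAF3.

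Ratios within a library do not depend on how libraries are scaled. For every read of TRAF2 there were 0.465, 0.440 and 0.494 reads of TRAF1 in ADAR1 p110 replicates 1, 2 and 3, against 1.10, 1.05 and 1.12 in the GFP replicates. The ratio differed by -1.22 on the log2 scale, against a spread within groups of 0.067 (SD), with p = 0.1 in a two-sided exact permutation test, the smallest that 3 against 3 libraries can give. The ratio of TRAF3 to TRAF2, members of 1 complex, was 0.722 ± 0.0224 in ADAR1 p110 libraries and 0.762 ± 0.0223 in GFP libraries (SD, n = 3 each). These groups overlapped, and the difference of -0.08 on the log2 scale gave p = 0.2 in the same exact permutation test.

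**Figure D3:**
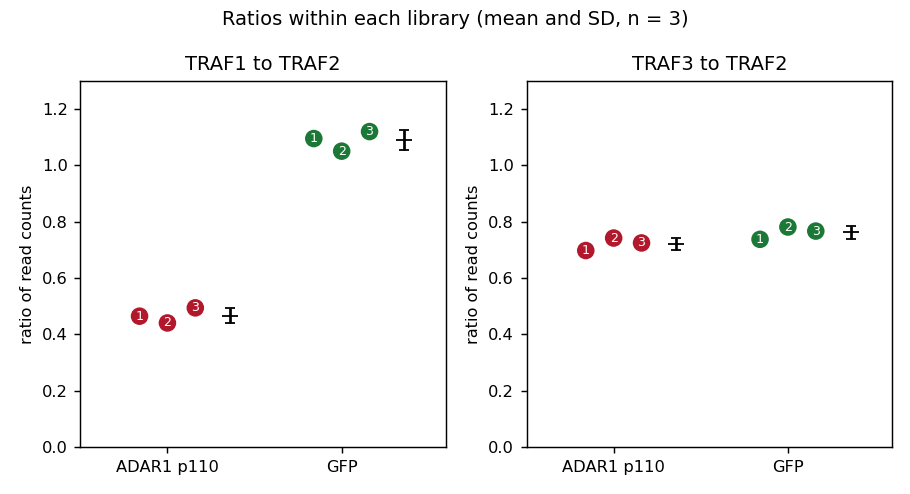
Ratio of read counts of TRAF1 to TRAF2 (left) and of TRAF3 to TRAF2 (right) in each library, on linear axes from 0, red for ADAR1 p110 and green for GFP, with replicate numbers in the points and the mean and SD beside them (n = 3 per group). The first ratio is 0.440 to 0.494 in ADAR1 p110 libraries and 1.05 to 1.12 in GFP libraries, and the second overlaps between groups.

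For each called member the 3 genes with the nearest pattern were found by the Euclidean distance between centred log2 CPM values over the 6 libraries. Candidates were 10628 other tested genes with a mean of at least 5 CPM. Genes with clone-like or certain pseudogene names were left out. Nearest to TRAF1 were the cytokine gene IL6 (distance 0.183), the NF-kappaB inhibitor gene NFKBIA (0.206) and the immune surface protein gene CD83 (0.208). CD83 averaged 21.1 ± 1.29 CPM in ADAR1 p110 libraries and 57.0 ± 0.635 CPM in GFP libraries (SD, n = 3 each). Nearest to TRAF2 were TMC5 (0.0367), FRMD6 (0.0475) and DIEXF (0.0484), and nearest to TRAF3 were LRIG1 (0.0453), SLC2A6 (0.0554) and CD276 (0.0594). Since only 2 conditions were sampled, these distances mostly reflect the size of the difference between the groups. TMC5 was not called (edgeR adjusted p = 0.0648). FRMD6 lost its call in 4 and DIEXF in 5 of the 14 alternative fits. The genes nearest to TRAF1 and TRAF3 kept their calls in all 14.

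The partners of the TRAF proteins were taken from 11 lists by role, which overlap, with 92 genes in all. These lists were chosen with earlier results of these data known, so an excess over the shares of all genes is not independent of that choice. Of the 81 tested, 22 fell and 3 rose, with a median log2 fold change of -0.09. Over all tested genes 2.96% fell and 1.95% rose, with a median of 0.005, and the counts of each list below stand against these shares. The 3 that rose were all in the list of the TRAF7 route, and falls were found in 8 of the other 10 lists.

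Among receptors that bind TRAF proteins through their tails, 4 of 12 tested genes fell and 0 rose (median log2 fold change -0.04), and 7 more were too low to test. TNFRSF9, the receptor 4-1BB, which binds TRAF1 and TRAF2, fell most, with 4.13, 4.44 and 4.62 CPM in ADAR1 p110 replicates 1, 2 and 3 and 25.7, 31.0 and 25.8 CPM in the GFP replicates. TNFRSF1B, the second TNF receptor, which binds TRAF2, averaged 24.7 ± 0.692 CPM in ADAR1 p110 libraries and 40.2 ± 0.770 CPM in GFP libraries (SD, n = 3 each; log2 fold change -0.70, edgeR adjusted p = 2.45e-05). CD40, which binds TRAF2, TRAF3 and TRAF6, fell by 0.25 on the log2 scale (edgeR adjusted p = 0.0248) and TNFRSF19 by 0.27 (adjusted p = 0.0362). Neither call survived leaving out ADAR1 p110 replicate 2 or 3 or any 1 of the GFP replicates, with adjusted p up to 0.117 and 0.160. The call of TNFRSF19 was also lost when libraries were scaled by their size alone (adjusted p = 0.0564). The list had 2 called genes without ADAR1 p110 replicate 2 or 3 or GFP replicate 1 or 2.

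Of the 10 partners of TRAF2 at TNF receptor 1, 4 fell and 0 rose (median -0.07). The ubiquitin ligases BIRC3 and BIRC2, which ride on TRAF1 and TRAF2, averaged 115 ± 6.90 and 203 ± 2.13 CPM in ADAR1 p110 libraries and 445 ± 14.7 and 295 ± 3.88 CPM in GFP libraries (SD, n = 3 each). The stress kinase gene MAP3K5 fell by 0.42 on the log2 scale (edgeR adjusted p = 0.00179) and the sphingosine kinase gene SPHK1 by 0.54 (adjusted p = 0.00122). In the list of the brake that TRAF2 and TRAF3 place on NIK, 4 of 6 genes fell and 0 rose (median -0.75), namely BIRC2 and BIRC3 again, NFKB2 (-0.96) and RELB (-1.16). The gene of NIK itself, MAP3K14, singled out after the values were known, was at 44.9 ± 3.03 CPM in ADAR1 p110 libraries and 43.4 ± 1.97 CPM in GFP libraries (SD, n = 3 each) and did not pass (log2 fold change 0.05, edgeR adjusted p = 0.753), with an estimate of -0.03 without ADAR1 p110 replicate 1 and GFP replicate 2.

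Of 8 genes around TRAF3 in antiviral signalling 3 fell and 0 rose (median -0.08). The kinase gene IKBKE had 43.3, 47.0 and 46.0 CPM in ADAR1 p110 replicates 1, 2 and 3 and 84.4, 76.8 and 80.9 CPM in the GFP replicates. TANK, an adaptor that binds TRAF proteins and both kinases, averaged 40.8 ± 0.505 CPM in ADAR1 p110 libraries and 55.5 ± 1.16 CPM in GFP libraries (SD, n = 3 each; log2 fold change -0.44, edgeR adjusted p = 0.000556). The adaptor TICAM1 fell by 0.40 on the log2 scale (edgeR adjusted p = 0.0295), a call lost without ADAR1 p110 replicate 2 or 3 or GFP replicate 1 or 3, with adjusted p up to 0.137. TBK1, the sister kinase of IKBKE, was at 51.0 ± 0.803 CPM in ADAR1 p110 libraries and 53.4 ± 0.537 CPM in GFP libraries (SD, n = 3 each; edgeR adjusted p = 0.541), and is named here with its value already known.

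In the route of TRAF6, 3 of 17 genes fell and 0 rose (median -0.16). The kinase gene IRAK2 had 16.6, 18.3 and 17.7 CPM in ADAR1 p110 replicates 1, 2 and 3 and 41.9, 39.4 and 37.9 CPM in the GFP replicates (log2 fold change -1.18, edgeR adjusted p = 1.10e-06). TIFA, a TRAF-binding protein with a forkhead-associated domain, and SQSTM1, the scaffold p62, fell by 0.65 and by 0.41 on the log2 scale (edgeR adjusted p = 0.000163 and 0.00274). MYD88, the adaptor of most Toll receptors, chosen with its value known, lay just outside the threshold (log2 fold change -0.34, edgeR adjusted p = 0.0501). It passed in 5 of 14 alternatives, which were no filter on low counts, DESeq2, limma-voom, and the fits without ADAR1 p110 replicate 1 or without it and GFP replicate 2. Its estimates ran from -0.47 to -0.26 and its adjusted p from 0.000216 to 0.210. Without ADAR1 p110 replicate 1 the list had 7 called genes, and it had 5 by DESeq2 or without a filter on low counts. In the interleukin-17 receptor route, which also runs through TRAF6, 0 of 4 genes were called, the one with the most counts being IL17RD, at 44.4 ± 2.74 CPM in ADAR1 p110 libraries and 50.5 ± 3.83 CPM in GFP libraries (SD, n = 3 each; edgeR adjusted p = 0.179), and 1 was called without ADAR1 p110 replicate 1.

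Enzymes that remove ubiquitin from TRAF proteins gave 3 lower and 0 higher genes of 8 (median -0.10). TNFAIP3, the NF-kappaB brake A20, had 11.1, 9.78 and 10.8 CPM in ADAR1 p110 replicates 1, 2 and 3 and 42.6, 42.6 and 39.1 CPM in the GFP replicates. CYLD, which cleaves chains on TRAF2 and TRAF6, averaged 62.3 ± 1.67 CPM in ADAR1 p110 libraries and 81.8 ± 0.692 CPM in GFP libraries (SD, n = 3 each; log2 fold change -0.39, edgeR adjusted p = 0.00102). OTUB2 had a log2 fold change of -0.29 (edgeR adjusted p = 0.0145), a call lost without ADAR1 p110 replicate 2 or 3 or GFP replicate 1 or 3, with adjusted p up to 0.0959.
The promoter windows of BIRC3, TNFAIP3 and TNFRSF9, shown because these partners fell more than any other, also held matches to the kappaB consensus, in capitals, with 20 bases on each side:
BIRC3, hg19 chr11:102187996-102188109, plus strand: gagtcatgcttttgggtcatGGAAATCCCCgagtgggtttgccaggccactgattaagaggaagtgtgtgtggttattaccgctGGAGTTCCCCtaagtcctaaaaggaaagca
TNFAIP3, hg19 chr6:138188309-138188370, plus strand: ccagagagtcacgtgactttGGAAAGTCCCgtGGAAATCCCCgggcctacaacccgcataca
TNFRSF9, hg19 chr1:8000943-8000993, minus strand: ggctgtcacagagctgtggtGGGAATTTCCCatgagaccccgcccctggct
Each held 2 matches, on the strand opposite to the gene in BIRC3 and TNFAIP3 and as a pair overlapping on both strands in TNFRSF9. These windows were looked at after the falls were known. That of TNFRSF9 belongs to a start, chr1:8000899, well inside the gene in the count table, which reaches to 8003225. Over all genes with a RefSeq window 13.3% had a match. Windows of the other called partners are not given here, so no share of matches among the partners can be drawn.

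Partners of TRAF4 in TGF-beta signalling gave 2 lower and 0 higher genes of 5 (median -0.15), the receptor gene TGFBR2 (log2 fold change -0.36, edgeR adjusted p = 0.0047) and the ubiquitin ligase gene SMURF1 (-0.21, edgeR adjusted p = 0.0385). The call of SMURF1 was lost without ADAR1 p110 replicate 2 or 3 or any 1 of the GFP replicates, with adjusted p up to 0.168, and with scaling by library size alone (0.0536), which each left 1 call in the list. Around TRAF7 and the kinases MEKK3 and ERK5, 3 of 6 genes rose and 0 fell (median 0.13). MAP3K3, the gene of MEKK3, had 44.9, 47.3 and 49.6 CPM in ADAR1 p110 replicates 1, 2 and 3 and 38.5, 36.4 and 38.6 CPM in the GFP replicates (log2 fold change 0.32, edgeR adjusted p = 0.00961). The transcription factor genes KLF2 and KLF4, known targets of that route, rose by 1.07 and by 0.25 on the log2 scale (edgeR adjusted p = 0.00201 and 0.0189). KLF2 was low, at 5.54 ± 1.03 CPM in ADAR1 p110 libraries and 2.65 ± 0.300 CPM in GFP libraries (SD, n = 3 each). MAPK7 (the gene of ERK5), MAP2K5 and MYB, named with their values known, were not called. Their log2 fold changes were -0.00053, -0.18 and -0.25 (edgeR adjusted p = 0.998, 0.664 and 0.556). The call of MAP3K3 was lost without ADAR1 p110 replicate 3 (adjusted p = 0.0587), where KLF2 was the 1 call left in the list, and that of KLF4 without ADAR1 p110 replicate 2 or 3 or GFP replicate 1 or 3 (adjusted p up to 0.102).

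Of 8 tested genes listed for binding a TRAF protein or for TRAF in their name, 3 fell and 0 rose (median -0.13). Those that fell were TANK and TIFA from the lists above and TRAFD1, a zinc finger protein (log2 fold change -0.24, edgeR adjusted p = 0.0415). The call of TRAFD1 was lost without ADAR1 p110 replicate 2 or 3 or GFP replicate 1 or 3, with adjusted p up to 0.193, and with scaling by library size alone (0.0568). Of 4 tested genes outside the family with a TRAF-like domain, 0 were called (median -0.12), and the one with the most counts, TRIM37, was at 128 ± 2.18 CPM in ADAR1 p110 libraries and 143 ± 5.07 CPM in GFP libraries (SD, n = 3 each; log2 fold change -0.16, edgeR adjusted p = 0.0993). Of these 4, 2 were called without ADAR1 p110 replicate 1 and 3 without it and GFP replicate 2.

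**Figure D4:**
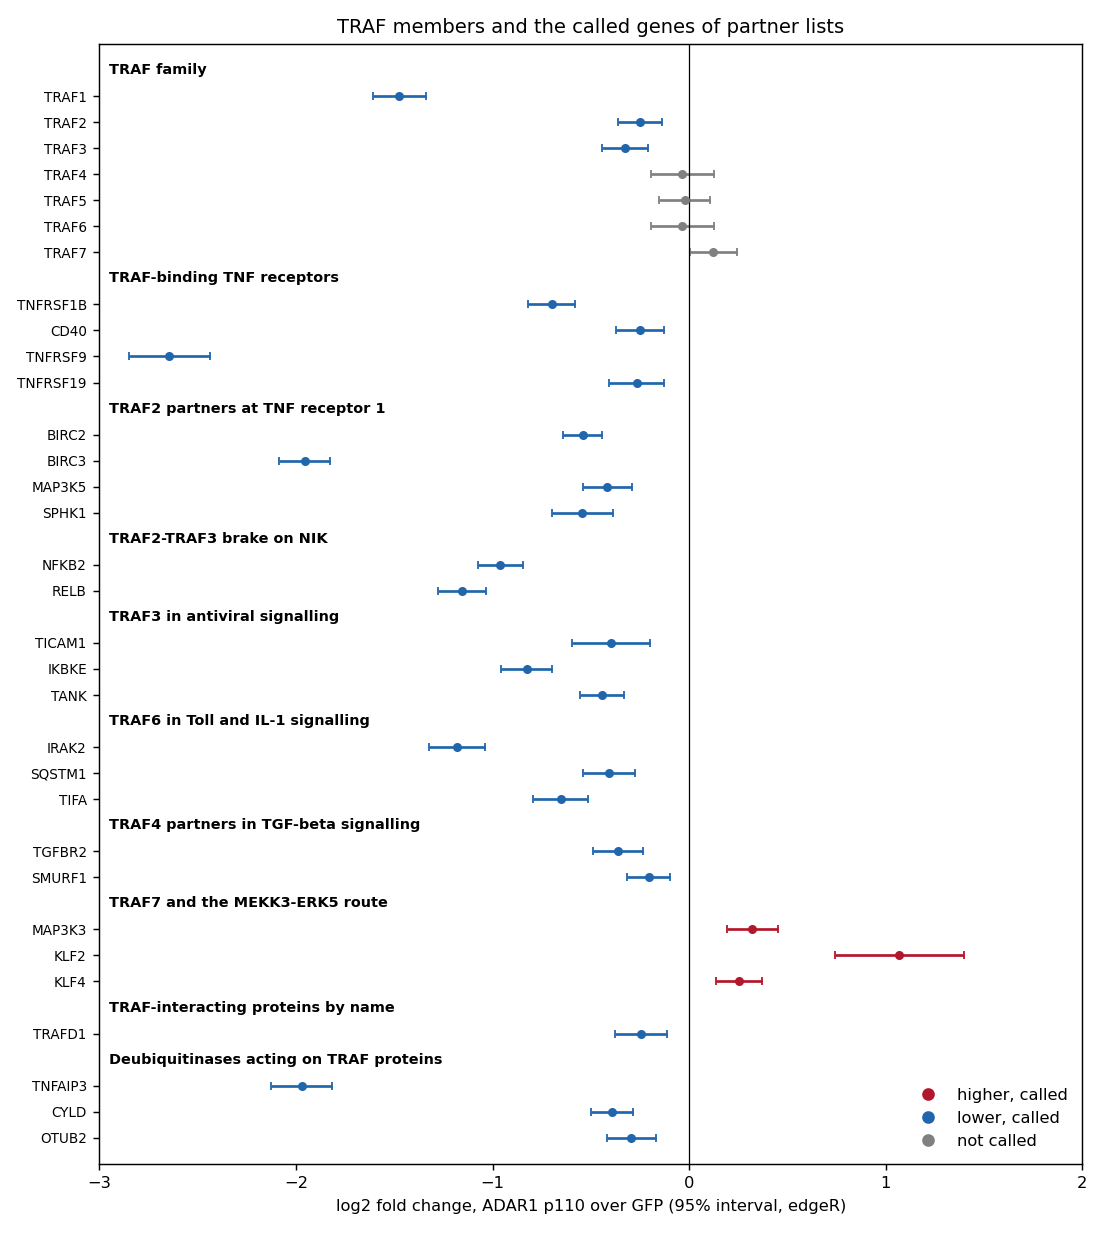
Horizontal axis, log2 fold change (ADAR1 p110 over GFP) with its 95% interval from edgeR, for the 7 TRAF members and the 25 called genes of the partner lists, each drawn once under its first list, in red where higher, blue where lower and grey where not called. TNFRSF9 at -2.64, TNFAIP3 at -1.97 and BIRC3 at -1.96 lie below TRAF1 at -1.47, and the 3 genes of the TRAF7 route lie above 0.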

How the data were processed

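The authors deposited raw read counts, whole numbers for 60461 genes in 6 libraries of MDA-MB-231 cells. Alignment was to hg19 by STAR 2.5.2a and counting by featureCounts 1.5.1 within QuickRNASeq, with DESeq2 1.4.5 and R 3.1 also named, per the submitters' processing notes and series text. How strand, multimapped reads and duplicates were handled was not stated in what was used here. Gene lengths and coordinates are those of the count table.

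Groups came from the titles. Low counts were filtered with filterByExpr (minimum count 10), and 18899 genes were TMM-scaled and fitted with glmQLFit in edgeR 4.0.16 under R 4.3.3. The only term was group, and the test was glmQLFTest. P-values were adjusted by Benjamini and Hochberg's method over all tested genes, and those under 0.05 were called. The SE is the log2 fold change over the square root of F, and RPKM is CPM per kilobase. Alternatives were no filter, DESeq2 size factors, library size alone, DESeq2 1.42.0, limma-voom (limma 3.58.1), a replicate block, ADAR and NDRG2 counts removed, and libraries left out. In simulated counts for these 18899 genes, edgeR found 16% of the 1.2-fold, 90% of the 1.5-fold, 92% of the 2-fold and 100% of the 4-fold changes, and 7.45% of its calls were false.

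Replicates of a group differed by 8.70 to 40.2 chi-square units per degree of freedom, so none repeated another. The members and lists were chosen with earlier results of these data known. The text names all members, every called gene of a list or, with none called, the one with the most counts, and the 3 nearest patterns, and says where it goes beyond these. Figures were made with matplotlib 3.10.9.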

Additional observations from a re-analysis of the deposited data

How the results depend on the processing

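TRAF1 and TRAF3 kept their direction and their call in all 14 alternatives, TRAF1 with log2 fold changes of -1.52 to -1.44 and adjusted p up to 6.52e-06, and TRAF3 with -0.35 to -0.30 and adjusted p up to 0.0387. Leaving out 1 library at a time gave -1.51 to -1.44 for TRAF1, -0.26 to -0.23 for TRAF2, -0.35 to -0.31 for TRAF3, -0.092 to 0.034 for TRAF4, -0.053 to 0.0042 for TRAF5, -0.10 to 0.018 for TRAF6 and 0.10 to 0.15 for TRAF7. TRAF5 was at 0.0020 with library size alone. The number of members called lower was 2 or 3 and the number called higher 0 throughout. Over all genes 927 were called, against 1553 without a low-count filter, 1245 by DESeq2, 2605 with both ADAR1 p110 replicate 1 and GFP replicate 2 left out, and 396 (without GFP replicate 1) to 1812 (without ADAR1 p110 replicate 1) with 1 library left out. MAP3K14 turned to -0.03 without those 2 libraries. Of the 25 called partner genes 17 kept their call in every alternative and 8 lost it in some, with none reversed. The ratio of TRAF1 to TRAF2 moved between -1.27 and -1.18, and that of TRAF3 to TRAF2 between -0.10 and -0.05. The cause of these shifts was not tested.

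Replicate numbers are shared by the groups, but same-numbered libraries deviated together at correlations of only -0.109, -0.0296 and 0.0433, so the numbers were not taken as pairs. The highest correlation was 0.161, between ADAR1 p110 replicate 1 and GFP replicate 2. Next came 0.109, between ADAR1 p110 replicate 3 and GFP replicate 1. The block used here joins same-numbered libraries and does not follow these values, whose source was not tested. No block along these values was fitted, so the calls lost below belong to the same-numbered block alone. With the replicate number as a block, 508 genes were called, and TRAF2 kept its log2 fold change of -0.25 but not its call (adjusted p = 0.0863), while TRAF1 and TRAF3 kept theirs. The TRAF1 to TRAF2 ratio differed by -1.22 with the block. Among the called partner genes, CD40, TNFRSF19, TICAM1, SMURF1, KLF4, TRAFD1 and OTUB2 also lost their calls with the block. The lowest count of any member in a library was 1167. The 16% of 1.2-fold changes that edgeR found is a value for simulated counts of the 18899 genes. Recovery at the depth of the TRAF members was not tested. Falls of up to 12.5% in TRAF4, 9.93% in TRAF5 and 12.6% in TRAF6 lay within their 95% intervals, so small shifts in single members can be missed.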
